A study of Mus musculus with 17 samples.

Results

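Genes of the TGF-beta pathway were followed in AB12 tumors at increasing age and after CTLA-4 blockade. The 10 genes were picked by symbol, among 55450 genes in the count table, as ligands (Tgfb1, Tgfb2, Tgfb3), receptors (Tgfbr1, Tgfbr2), latent binding proteins (Ltbp1, Ltbp2), genes named for their link to TGF-beta (Tgfbi, Tgfb1i1) and the activin subunit gene Inhba. Each symbol belonged to 1 Ensembl gene, and all 10 passed the filter on low counts in every comparison. The 10 genes were chosen with earlier results of these data known, so their counts set beside all genes are descriptions.

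TGF-beta is secreted in a latent form, bound to its own propeptide and to a latent TGF-beta binding protein that anchors it in the extracellular matrix. Once released, it is bound by the type II receptor, which recruits the type I receptor, and the complex phosphorylates SMAD proteins that enter the nucleus. In mesothelioma and in the peritoneum, TGF-beta and the related activins are known for their part in matrix deposition, in the change of mesothelial cells to a mesenchymal form and in restraint of T cells.

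Cells of AB12, a mesothelioma line of the mouse, had been injected into the peritoneum of 8-week-old female BALB/c mice, which have an intact immune system. Untreated mice gave 3 tumors at d6, 5 at d10 and 3 at d14, and mice given 200 µg doses of anti-CTLA4 (clone 9D9) gave 3 tumors at d10 and 3 at d14. For the treated d14 tumors the methods place the injections on d6 and d10. They give no schedule for the treated d10 tumors, and they name no control antibody for the untreated mice. All 17 tumors came from this 1 cell line, so the tumors differ as host mice and not as lines.

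Each library came from 1 mouse and held between 46371577 and 96759833 counts, so even the lowest count of any of the 10 genes, that of Ltbp2, was 136. Levels are given as normalized CPM, which are counts divided by library size (CPM) after TMM scaling over all 17 libraries. Markers of tumor and mesothelium were present as labelled, with Msln, the gene of mesothelin, between 175 and 636 normalized CPM in every library. The keratin genes Krt8, Krt18 and Krt19 were at 336 or more. Others of the 10 markers were low, with Muc16 between 0.072 and 3.01 and lowest levels of 1.39 for Upk3b, 1.24 for Upk1b and 1.33 for Lrrn4. Untreated d10 replicates 4 and 5 stood apart from replicates 1 to 3, with 7.89% of 17321 genes called between these parts, a split made on the data themselves, so each result that rests on the d10 tumors was also computed with either part alone. Acinar pancreas markers, whose summed level was at most 2.45 normalized CPM in the 14 other libraries, reached 946, 2.88 and 311 in treated d14 replicates 1, 2 and 3. The 4 fits that hold the treated d14 tumors were therefore also run with replicate 2 alone. The instrument used for each library was not given in the sources used here, and its part in these differences was not tested.

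A gene was called where the quasi-likelihood test of edgeR gave a Benjamini-Hochberg adjusted p below 0.05 and its fold change was above 2, and it is said to have risen or fallen where the adjusted p alone lay below 0.05. Errors of log2 fold changes are standard errors, and errors of levels are SDs between tumors. Since these are whole tumors, a change in the number of cells of a type and a change in RNA per cell cannot be told apart.

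Per kb of exon, the mean level over 17 libraries was highest for Tgfbi and Tgfb1, each at 35.0 normalized CPM per kb, followed by Ltbp1 at 27.7, Tgfbr2 at 23.8 and Inhba at 14.9. Tgfb3 lay at 9.84 and Tgfbr1 at 7.96, and the lowest were Tgfb2 at 2.37, Ltbp2 at 1.98 and Tgfb1i1 at 1.05. The range between the lowest and the highest tumor was 14.6-fold for Ltbp2, 6.67-fold for Inhba and 3.99-fold for Tgfbi, against 1.63-fold for Tgfbr2 and 1.72-fold for Tgfb3. Ltbp2 and Inhba thus varied most between tumors, and Tgfbr2 and Tgfb3 least.

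**Figure D1:**
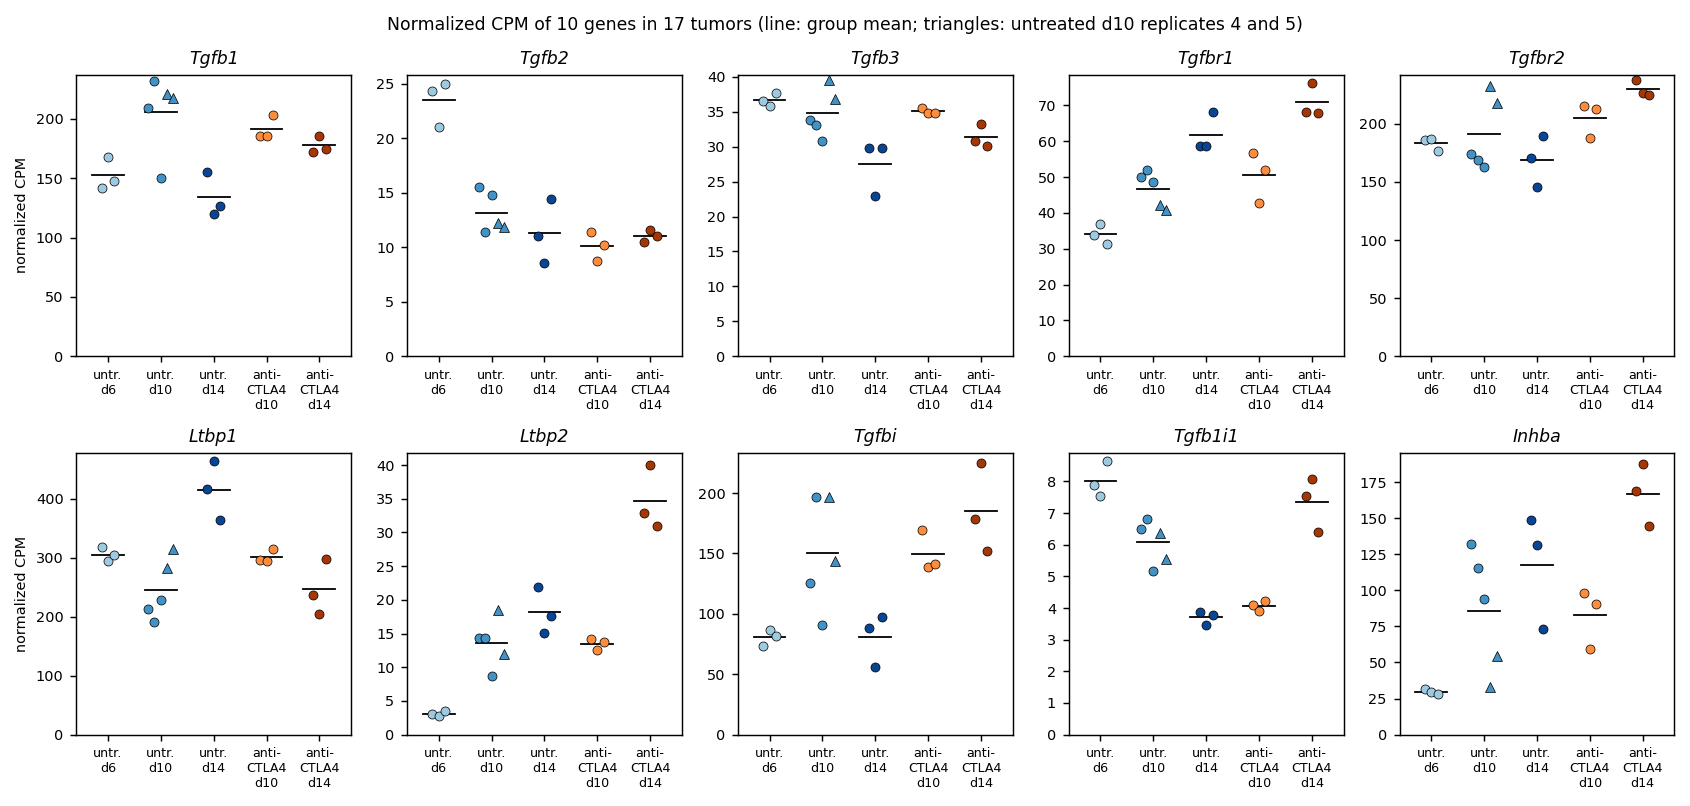
Normalized CPM (y axis, linear from 0) of each of the 10 genes in 17 tumors, by group along the x axis. Points are tumors, lines are group means, and triangles mark untreated d10 replicates 4 and 5. Ltbp2 is between 2.74 and 3.44 in the 3 d6 tumors and above 8.6 in every later tumor, and Inhba in untreated d10 tumors splits into 3 high and 2 low tumors.

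Among the ligands, Tgfb2 was higher in early tumors than at any later time, while Tgfb1 differed less between groups. Tgfb2 encodes the isoform known for its part in mesenchymal transition of epithelia and lies on chr1:186622792-186705989 (GRCm38, minus strand). It measured 24.4, 21.1 and 25.0 normalized CPM in the 3 tumors at d6, and 15.5, 11.4, 14.8, 12.2 and 11.9 in the 5 untreated tumors at d10. In untreated d14 tumors it measured 10.99, 8.56 and 14.5, and in the 6 treated tumors it lay between 8.72 and 11.6. Every d6 tumor was thus above every later tumor, treated or not, and the later groups overlapped. The fall from d6 to d10 was −0.81 ± 0.14 on the log2 scale (edgeR adjusted p = 0.00406), and −0.73 and −0.95 with d10 replicates 1 to 3 or 4 and 5 alone. From d6 to d14 it was −1.03 ± 0.18 (edgeR adjusted p = 0.00149), past 2-fold by a small margin, and the fold change fell below 2 without d6 replicate 3 (−0.99) or without untreated d14 replicate 2 (−0.86). The antisense gene Gm29491 overlaps 124 bases of Tgfb2 exons, and since the use of strand in counting was not stated, reads from the overlap cannot be told apart.

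The upstream sequence of Tgfb2 is shown because it is the ligand that changed most, and it can be set beside those of Ltbp2 and Inhba below. It covers 250 bases before the gene's start, chr1:186705990-186706239 on the minus strand (RefSeq, GRCm38.p6), written 5′ to 3′. Capitals mark CAGAC, the core of the SMAD binding element, or its reverse complement.
Tgfb2: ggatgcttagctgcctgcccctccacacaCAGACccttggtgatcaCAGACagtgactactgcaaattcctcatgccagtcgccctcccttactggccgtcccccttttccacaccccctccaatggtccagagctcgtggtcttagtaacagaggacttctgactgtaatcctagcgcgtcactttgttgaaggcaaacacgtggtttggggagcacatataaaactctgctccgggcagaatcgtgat

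Tgfb1, the isoform most made by immune cells and platelets (chr7:25687002-25705077, plus strand), was the most abundant of the 3 ligands in every tumor. It measured 141, 168 and 148 normalized CPM at d6, then 209, 232, 150, 221 and 218 in untreated tumors at d10, and 155, 120 and 127 in untreated tumors at d14. Treated tumors measured 185, 185 and 204 at d10 and 172, 186 and 175 at d14. All of the untreated d10 tumors except replicate 3 were above all tumors of the other untreated times. From d6 to d10 the difference was 0.46 ± 0.14 (edgeR adjusted p = 0.0528) and passed the threshold without d10 replicate 3 (0.55, adjusted p = 0.00591), and from d10 to d14 Tgfb1 fell by 0.62 ± 0.16 on the log2 scale (edgeR adjusted p = 0.0246). That fall passed no longer without d10 replicate 1 or 2 or without d14 replicate 2 or 3, with adjusted p between 0.0517 and 0.121. Treated d14 tumors lay above untreated d14 tumors without overlap, by 0.44 ± 0.11 (edgeR adjusted p = 0.0213). This rise missed the threshold without untreated d14 replicate 2 (adjusted p = 0.0517) and without treated d14 replicate 2 (adjusted p = 0.0558).

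Tgfb3 (chr12:86056745-86079041, minus strand) stayed between 22.9 and 39.5 normalized CPM in the 17 tumors, with means of 36.7 ± 0.881 at d6 (n = 3), 34.8 ± 3.38 at d10 (n = 5) and 27.5 ± 3.98 at d14 (n = 3) in untreated mice. It fell from d6 to d14 by 0.40 ± 0.11 on the log2 scale (edgeR adjusted p = 0.0165), and with the full groups its adjusted p was at least 0.0846 in the other comparisons. With untreated d10 replicates 4 and 5 alone it fell from d10 to d14 (−0.49 ± 0.13, adjusted p = 0.0328) and was lower in treated d14 than in untreated d10 tumors (−0.31 ± 0.08, adjusted p = 0.0173), and with all 5 groups in 1 fit the d10 to d14 fall was −0.34 (adjusted p = 0.015). The non-coding genes Gm37804 and Gm48008 overlap its exons on the other strand, by 163 and 257 bases. Taken per kb, Tgfb1 made up between 65.2% and 79.7% of the summed level of the 3 ligands, and Tgfb3 between 16.9% and 25.1%. The share of Tgfb2 was 9.02% ± 1.19 at d6 (n = 3) and at most 6.85% in any later tumor.

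The receptors moved unequally, with a rise of the type I receptor gene through time and little change of the type II receptor gene. Tgfbr1 (chr4:47353222-47414931, plus strand) measured 33.8, 36.9 and 31.3 normalized CPM at d6, 49.97, 51.9, 48.6, 42.3 and 40.7 in untreated tumors at d10, and 58.7, 58.6 and 68.0 in untreated tumors at d14. Its level in treated tumors was 56.6, 42.7 and 52.0 at d10 and 68.2, 76.3 and 67.9 at d14. Over the 3 untreated times no neighbouring groups overlapped. It rose by 0.48 ± 0.11 from d6 to d10 (edgeR adjusted p = 0.0169), by 0.40 ± 0.11 from d10 to d14 (adjusted p = 0.0289) and by 0.88 ± 0.09 from d6 to d14 (adjusted p = 0.000149). The first step missed the threshold without d6 replicate 1 or 3 (adjusted p = 0.0801 and 0.0812), and the second without d10 replicate 1 or any 1 of the d14 tumors (adjusted p between 0.0556 and 0.103). In treated tumors it rose by 0.51 ± 0.11 from d10 to d14 (edgeR adjusted p = 0.00511). At d14, treated and untreated tumors overlapped and differed by 0.23 ± 0.09 (edgeR adjusted p = 0.0833), with an adjusted p of 0.0211 once untreated d14 replicate 3 was left out.

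Tgfbr2 (chr9:116084293-116175360, minus strand) lay between 146 and 238 normalized CPM in all 17 tumors. In untreated d10 tumors, replicates 4 and 5 (232 and 218) were above replicates 1 to 3 (174, 169 and 163). Untreated d14 tumors measured 171, 146 and 189, and treated d14 tumors 238, 226 and 225, without overlap. The rise with treatment at d14 was 0.48 ± 0.10 (edgeR adjusted p = 0.0134). With the full groups no time comparison of untreated tumors passed the threshold for Tgfbr2. With d10 replicates 4 and 5 alone it rose from d6 to d10 (0.31 ± 0.08, edgeR adjusted p = 0.016) and fell from d10 to d14 (−0.43 ± 0.11, adjusted p = 0.0315). Per kb, the ratio of Tgfbr1 to Tgfbr2 was 0.232 ± 0.0131 at d6 (n = 3), 0.462 ± 0.0381 in untreated d14 tumors (n = 3) and 0.387 ± 0.0325 in treated d14 tumors (n = 3). In untreated d10 tumors this ratio spread from 0.228 to 0.385, with replicates 4 and 5 lowest.

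**Figure D2:**
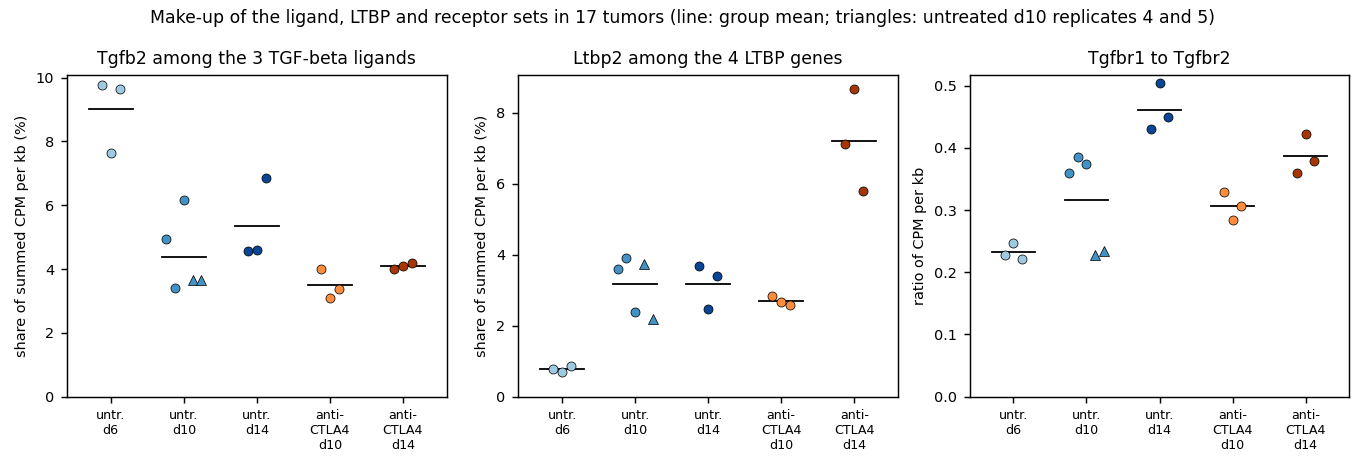
Share of Tgfb2 in the summed normalized CPM per kb of Tgfb1, Tgfb2 and Tgfb3 (left, %), share of Ltbp2 in that of Ltbp1 to Ltbp4 (middle, %), and ratio of Tgfbr1 to Tgfbr2 per kb (right), by group, with points for tumors and lines for means. The Tgfb2 share is above 7.6% at d6 only, the Ltbp2 share is highest in treated d14 tumors, and the receptor ratio at d6 is below 0.25 in each tumor.

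Of the latent binding protein genes, Ltbp2 had the largest change with time of the 10 genes, and Ltbp1 moved the other way under treatment. Ltbp2 encodes the family member that binds fibrillin microfibrils and, unlike Ltbp1, does not bind latent TGF-beta. It lies on chr12:84783212-84876532 (minus strand). It measured 3.09, 2.74 and 3.44 normalized CPM at d6, 14.3, 14.4, 8.70, 18.5 and 11.997 in untreated tumors at d10, and 21.9, 15.1 and 17.6 in untreated tumors at d14. In treated tumors it measured 14.2, 12.5 and 13.7 at d10 and 32.9, 40.0 and 30.9 at d14. The d6 tumors were the lowest of all and the treated d14 tumors the highest of all, with no overlap with any other group. From d6 it rose 4.45-fold to d10 (log2 2.16 ± 0.24, edgeR adjusted p = 0.00058) and 5.95-fold to d14 (log2 2.57 ± 0.18, adjusted p = 3.36e-05). Between d10 and d14 the untreated groups overlapped and the difference was 0.42 ± 0.22 (adjusted p = 0.199). In treated tumors it rose 2.60-fold from d10 to d14 (log2 1.38 ± 0.10, adjusted p = 0.00028), and treated exceeded untreated tumors at d14 by 0.96 ± 0.16 (adjusted p = 0.00686). That last fold change came above 2 without untreated d14 replicate 1 (1.12) or treated d14 replicate 1 or 3 (1.02 and 1.08). An antisense gene, D030025P21Rik, shares 764 bases with Ltbp2 exons, so that part of the Ltbp2 reads cannot be assigned without strand.

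The upstream sequences of Ltbp2 and Inhba are shown because these genes were called together in the rise from d6. That of Ltbp2 is the 209 bases that lie before its start in RefSeq and in Gencode alike (chr12:84876533-84876741, minus strand), and that of Inhba is the 250 bases before its start (chr13:16011601-16011850, plus strand), both from RefSeq, GRCm38.p6. Capitals again mark CAGAC on either strand.
Ltbp2: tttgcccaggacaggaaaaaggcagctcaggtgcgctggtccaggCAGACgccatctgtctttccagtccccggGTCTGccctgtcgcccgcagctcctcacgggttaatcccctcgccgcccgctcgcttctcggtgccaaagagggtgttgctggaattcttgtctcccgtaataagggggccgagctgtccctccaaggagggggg
Inhba: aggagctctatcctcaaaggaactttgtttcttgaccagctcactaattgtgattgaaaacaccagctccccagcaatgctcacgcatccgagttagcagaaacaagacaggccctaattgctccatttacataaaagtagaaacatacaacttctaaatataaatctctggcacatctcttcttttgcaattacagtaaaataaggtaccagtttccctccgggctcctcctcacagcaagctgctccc

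CAGAC was searched on both strands of 10 upstream windows, which RefSeq gave for 8 of the 10 genes, and 7 windows of 6 genes held it. Tgfbr1 and Ltbp1 each had a further window, before a start that lies inside the gene, and Tgfbr1 held CAGAC only there. The window of Tgfbi was 187 bases, a length for which no share over all windows was computed. Of 32817 windows of 250 bases before RefSeq starts, 42.2% held it, and of windows of 209 bases 37.1%. Tgfb2 and Ltbp2 each had 2 matches and Inhba had 0. TGANTCA, the AP-1 motif, was in 0 of the 10 windows and in 6.75% of all windows of 250 bases. A match describes these letters and is not a measured site.

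Ltbp1, which encodes the carrier that tethers latent TGF-beta to matrix (chr17:75005568-75392512, plus strand), was highest in untreated d14 tumors. It measured 317, 293 and 304 normalized CPM at d6, 212, 191, 228, 282 and 315 in untreated tumors at d10, and 416, 464 and 364 in untreated tumors at d14. Treated tumors measured 296, 294 and 315 at d10 and 237, 204 and 297 at d14. Each untreated d14 tumor was above all other tumors. It rose by 0.75 ± 0.18 from d10 to d14 in untreated tumors (edgeR adjusted p = 0.0198) and by 0.46 ± 0.11 from d6 to d14 (adjusted p = 0.00587). The first of these missed the threshold without untreated d14 replicate 1 or 2 (adjusted p = 0.0647 and 0.101). From d6 to d10 the outcome depended on which d10 tumors were used, with a fall of −0.51 ± 0.10 for replicates 1 to 3 (adjusted p = 0.00475) and a difference of −0.02 ± 0.10 for replicates 4 and 5 (adjusted p = 0.889). At d14 it was lower with treatment, by −0.72 ± 0.14 (edgeR adjusted p = 0.0106), with an adjusted p of 0.0503 once treated d14 replicate 1 was left out.

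Per kb and over the 4 genes of the family, Ltbp2 made up 0.782% ± 0.0918 of the summed level at d6 (n = 3), 3.17% ± 0.816 in untreated d10 tumors (n = 5), 3.19% ± 0.640 in untreated d14 tumors (n = 3) and 7.20% ± 1.44 in treated d14 tumors (n = 3). Ltbp1 made up between 33.9% and 61.0%, and its share was 55.2% ± 2.51 in untreated against 38.6% ± 4.47 in treated d14 tumors. Ltbp4, which binds latent TGF-beta weakly and organizes elastic fibers, rose with Ltbp2 from d6 to d10 by 1.01 ± 0.16 (edgeR adjusted p = 0.0033) and from d6 to d14 by 1.30 ± 0.11 (adjusted p = 5.84e-05).

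Tgfbi, which encodes a matrix adhesion protein induced by TGF-beta (chr13:56609523-56639562, plus strand), was high at d10 and in treated tumors, and low at d6 and in untreated d14 tumors. It measured 73.3, 86.2 and 81.7 normalized CPM at d6, 126, 197, 90.7, 197 and 144 in untreated tumors at d10, and 88.7, 56.4 and 97.1 in untreated tumors at d14. In treated tumors it measured 169, 139 and 141 at d10 and 179, 225 and 152 at d14. The d6 and the untreated d14 tumors overlapped, and their means were 80.4 ± 6.53 and 80.7 ± 21.5 (n = 3 each). It rose by 0.93 ± 0.23 from d6 to d10 (edgeR adjusted p = 0.0241) and fell by 0.91 ± 0.27 on the log2 scale from d10 to d14 (adjusted p = 0.0432). The rise missed the threshold without d10 replicate 2 or any 1 of the d6 tumors (adjusted p between 0.0506 and 0.11) and passed 2-fold without d10 replicate 3 (1.06), and the fall without any 1 library other than d10 replicate 3 (adjusted p between 0.0565 and 0.178), while without that replicate it was −1.04 and called. Treated d14 tumors had 2.35-fold the level of untreated d14 tumors (log2 1.23 ± 0.22, adjusted p = 0.00832), with no overlap. All 6 fits that left out 1 library kept this adjusted p below 0.05.

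Tgfb1i1 encodes Hic-5, a focal adhesion protein of the paxillin family that also acts as a nuclear receptor coactivator (chr7:128246812-128255699, plus strand). It measured 7.87, 7.54 and 8.65 normalized CPM at d6, 6.50, 6.81, 5.18, 6.38 and 5.56 in untreated tumors at d10, and 3.86, 3.47 and 3.78 in untreated tumors at d14. Treated tumors measured 4.08, 3.91 and 4.23 at d10 and 7.55, 8.08 and 6.39 at d14. The untreated groups lay lower with each later day without overlap, and the treated d14 tumors lay among those of untreated d10 and d6. From d6 to d10 the difference was −0.38 ± 0.14 (edgeR adjusted p = 0.0936). It fell by −0.72 ± 0.15 from d10 to d14 (edgeR adjusted p = 0.0147, and 0.0739 without untreated d14 replicate 2) and by −1.10 ± 0.15 from d6 to d14 (adjusted p = 0.000472). With treatment at d14 it rose by 1.02 ± 0.15 (adjusted p = 0.00566), a fold change that came below 2 without untreated d14 replicate 2 (0.96) or treated d14 replicate 2 (0.98). It was also the gene with the largest difference between treated and untreated tumors at d10 among the 10, at −0.58 ± 0.14 (edgeR adjusted p = 0.206), where DESeq2 gave an adjusted p of 0.00432 and edgeR with all 5 groups in 1 fit 0.045.

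Inhba encodes the subunit of activin A, a ligand of the TGF-beta superfamily that signals through the same SMAD branch (chr13:16011851-16031621, plus strand). It measured 31.5, 29.5 and 28.1 normalized CPM at d6. In untreated d10 tumors, replicates 1 to 3 measured 132, 116 and 93.8, and replicates 4 and 5 measured 33.1 and 54.2. Untreated d14 tumors measured 149, 131 and 73.3, treated d10 tumors 97.9, 59.3 and 90.8, and treated d14 tumors 169, 187 and 145. Every later tumor was thus above the d6 tumors, the lowest of them by little. The rise from d6 to d10 was 2.94-fold (log2 1.55 ± 0.40, edgeR adjusted p = 0.0254), but 1.96 ± 0.12 on the log2 scale with replicates 1 to 3 and 0.57 ± 0.19 with replicates 4 and 5 (adjusted p = 1.83e-05 and 0.037). It missed the threshold without d10 replicate 2 or any 1 of the d6 tumors (adjusted p between 0.0547 and 0.0997). The rise from d6 to d14 was 4.03-fold (log2 2.01 ± 0.23, adjusted p = 0.000206), and within treated tumors from d10 to d14 it was 2.04-fold (log2 1.03 ± 0.17, adjusted p = 0.00185). That last fold change came below 2 without treated d10 replicate 2 (0.84) or treated d14 replicate 2 (0.94). At d14, treated and untreated tumors overlapped at 1 pair of values and differed by 0.54 ± 0.24 (adjusted p = 0.122). Per kb, Inhba at 14.9 ± 8.07 (n = 17) was above Inhbb, the subunit of activin B, at 2.07 ± 0.751, and Inha, the subunit particular to inhibins, at 0.612 ± 0.344.

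Across the 10 genes, 5 passed the adjusted p from untreated d6 to d10 and 2 of them, Ltbp2 and Inhba, were called, against 17.5% and 7.45% of 16866 genes tested. Both called genes were higher, as were 4.79% of all genes. From d10 to d14, 5 passed and 0 were called, against 19.7% and 7.23% of 17659 genes, and at an unadjusted p below 0.05 there were 6 (6502 of all genes), and 5 at the adjusted p of DESeq2. From d6 to d14, 7 passed and 4 were called, Ltbp2 and Inhba higher and Tgfb2 and Tgfb1i1 lower, against 51.5% and 19% of 17172 genes. The median log2 fold change of the 10 genes in these comparisons was 0.27, −0.20 and −0.04, against medians of 0.03, −0.04 and 0.01 over all genes tested. With groups of this size, genes whose 2 groups did not overlap made up 28.5%, 28.3% and 61.1% of all genes, and 6, 4 and 7 of the 10. All of these comparisons share groups and are not independent of each other.

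**Figure D3:**
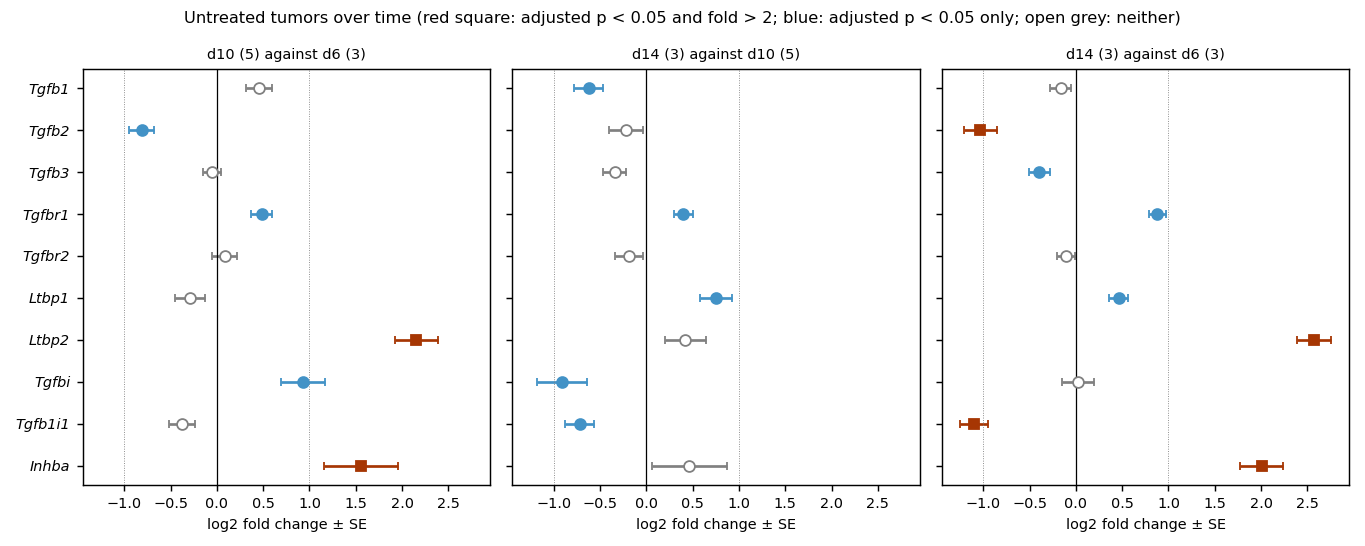
Log2 fold change (x axis, with SE bars) of each of the 10 genes in untreated tumors, for d10 against d6, d14 against d10 and d14 against d6, with group sizes in brackets and dotted lines at 2-fold. Red squares are called genes, blue points passed the adjusted p only, and open points passed neither. Ltbp2 at 2.16 and 2.57 and Inhba at 1.55 and 2.01 are the highest values against d6, and in d14 against d10 no gene is called.

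At d10, whether a difference with treatment was detected in the 10 genes depended on the fit. In the main fit none passed the adjusted p (against 0.0174% of 17258 genes), and 2 had an unadjusted p below 0.05 in edgeR (2329 of all genes). A term for replicate number, which takes untreated d10 replicates 4 and 5 out of the fold change, brought Inhba, Ltbp1, Tgfb1i1, Tgfb2 and Tgfbr2 past. With DESeq2, 1 of the 10, Tgfb1i1, passed. Tgfb1i1 was also the only 1 of the 10 whose groups did not overlap, against 8.44% of all genes. Here too the d10 controls mattered. Against replicates 1 to 3 alone, Ltbp1 (0.53 ± 0.10, edgeR adjusted p = 0.00417) and Tgfbr2 (0.29 ± 0.09, adjusted p = 0.0355) were higher and Tgfb1i1 lower (−0.59 ± 0.15, adjusted p = 0.0165) in treated tumors. Against replicates 4 and 5 alone, none of the 10 passed, with an adjusted p of at least 0.141.

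At d14, 6 of the 10 genes passed the adjusted p and 2 were called, Tgfbi and Tgfb1i1, against 32.4% and 11.5% of 18062 genes, and both were higher, as were 9.07% of all genes. Of these 6, Tgfb1, Tgfbr2, Tgfbi, Tgfb1i1 and Ltbp2 were higher and Ltbp1 lower in treated tumors. The groups did not overlap for 7 of the 10, against 51.9% of all genes, and the median log2 fold change was 0.46, against −0.0043 over all genes. With treated d14 replicate 2 alone, the library without acinar pancreas markers, the difference was 1.51 for Tgfbi, 1.16 for Tgfb1i1, 1.17 for Ltbp2 and −0.99 for Ltbp1, larger in size than with all 3 libraries. In that fit, in which the lone treated tumor is assumed to vary like the untreated ones, none of the 10 and 2 of 19298 genes were called, and the adjusted p of these 4 lay between 0.0965 and 0.102.

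Cell markers moved along with these genes at d14. The summed level of 7 macrophage markers was between 1643 and 2038 normalized CPM in treated and between 584 and 990 in untreated d14 tumors, and 7 of 7 rose. The sum of 7 fibroblast markers was between 490 and 711 against 188 and 327, with 5 of the 6 tested higher, and the marker Pdpn was at 0 in 14 of 17 libraries. The sum of 6 endothelial markers was between 147 and 179 against 90.3 and 106, and that of 6 T cell markers between 229 and 257 against 87.9 and 158. The sum of 3 regulatory T cell markers was between 52.0 and 58.7 against 18.3 and 24.1, with 3 of 3 higher, and that of 4 neutrophil markers between 136 and 185 against 53.8 and 110, with 2 of 4 higher. Tumor and mesothelium markers summed to between 1951 and 2211 in treated and between 2900 and 3041 in untreated d14 tumors. Of these 10 markers, 4 were lower and 2 higher with treatment. From d10 to d14 in untreated tumors, 6 of 7 macrophage markers and 6 of 6 T cell markers fell. Of the 10 genes, Tgfb1, Tgfbi and Tgfb1i1 fell there, while Tgfbr1 and Ltbp1 rose. From d6 to d10, Ltbp2, Inhba, Tgfbi and Tgfbr1 rose and Tgfb2 fell. Between the same days 5 of 6 T cell markers rose (sums between 48.9 and 53.3 at d6 and between 213 and 282 at d10). So did 3 of 6 fibroblast markers tested (197 to 243 against 347 to 558) and 3 of 7 macrophage markers (1352 to 1513 against 1447 to 2540). The part of these cells in the levels of the 10 genes was not tested.

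The difference between the treatment effects at d14 and at d10 passed the adjusted p for 4 of the 10 genes, of which 3 were called, against 17.7% and 11.8% of 18574 genes. It was 1.59 ± 0.19 for Tgfb1i1 (edgeR adjusted p = 0.00185), 1.23 ± 0.35 for Tgfbi (adjusted p = 0.029), 0.96 ± 0.29 for Ltbp2 (adjusted p = 0.0333) and −1.03 ± 0.24 for Ltbp1 (adjusted p = 0.0115) on the log2 scale. For Tgfb1i1 the effect was below 0 at d10 and above 0 at d14, and for Ltbp1 the reverse, though neither gene passed the threshold at d10. With treated d14 replicate 2 alone, the values for Tgfb1i1 (1.70, adjusted p = 0.0283) and Ltbp1 (−1.33, adjusted p = 0.0373) passed and those for Tgfbi (1.49, adjusted p = 0.0742) and Ltbp2 (1.15, adjusted p = 0.0931) did not. The value for Tgfbi missed the adjusted p without treated d10 replicate 2 or 3, treated d14 replicate 1 or 2 or untreated d14 replicate 2 (0.0606 to 0.092). That of Tgfb1, 0.53 ± 0.19 (adjusted p = 0.0645), passed without untreated d10 replicate 3 or untreated d14 replicate 1 (0.62 and 0.65, adjusted p = 0.00742 and 0.0412). The value for Ltbp2 missed it without any 1 of 9 of the 14 libraries, which were all treated d10 tumors, treated d14 replicates 1 and 2, untreated d10 replicates 1 and 2 and untreated d14 replicates 2 and 3 (0.0513 to 0.104), and it came above 2-fold without untreated d10 replicate 3 or 5, untreated d14 replicate 1 or treated d14 replicate 3 (1.001 to 1.12). The fold change of Ltbp1 came below 2 without untreated d10 replicate 1 or 2 (−0.98 and −0.95) or either replicate 2 at d14 (−0.96 untreated, −0.93 treated), and was −0.74 with d10 replicates 4 and 5 alone. For Inhba it was 0.58 ± 0.54 (adjusted p = 0.504), which became 0.99 ± 0.34 with d10 replicates 1 to 3 (adjusted p = 0.0365) and −0.38 ± 0.41 with replicates 4 and 5 (adjusted p = 0.513).

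**Figure D4:**
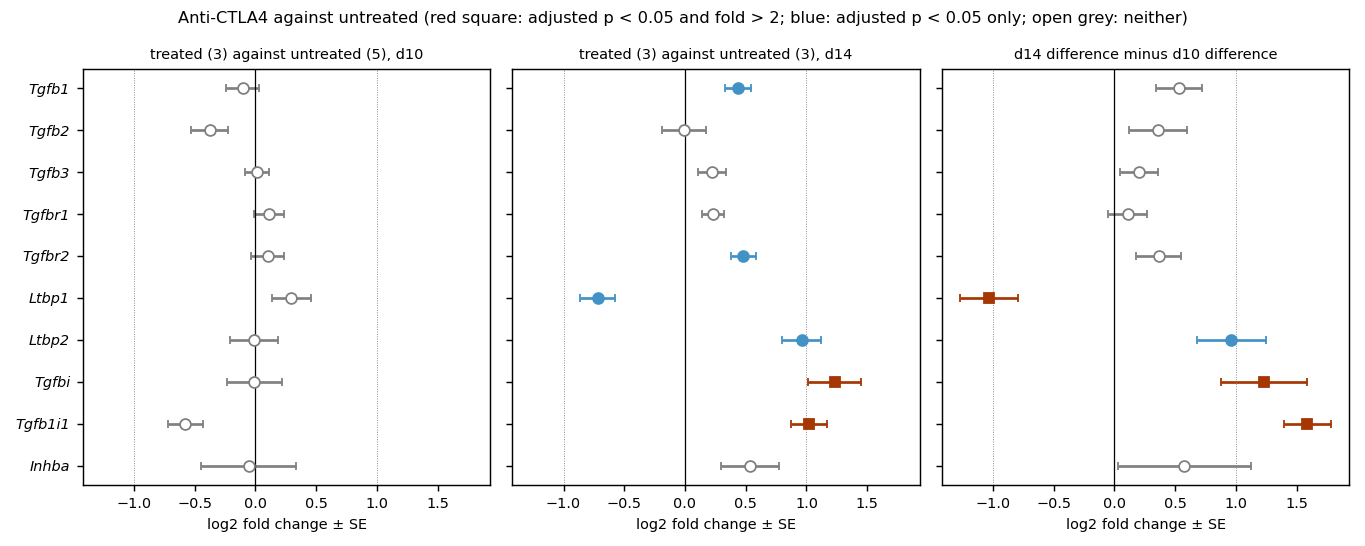
Log2 fold change (x axis, with SE bars) of each of the 10 genes for anti-CTLA4 against untreated tumors at d10, the same at d14, and the d14 difference minus the d10 difference, with dotted lines at 2-fold and symbols as for the untreated time course. No gene passed at d10, whereas Tgfbi at 1.23 and Tgfb1i1 at 1.02 are called at d14, where Ltbp1 at −0.72 is the only 1 of the 10 that fell.

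A further pair of comparisons set treated d14 tumors against d10. Against untreated d10 tumors, Ltbp2 (log2 1.31 ± 0.20, edgeR adjusted p = 0.00316) was called and Tgfbr1 (0.56 ± 0.10, adjusted p = 0.00523) rose, so 2 of the 10 passed, against 27.7% of 18057 genes, and 1 was called, against 7.83%. Both were higher, as were 12.4% of all genes at the adjusted p and 5.34% of all genes as called, and 3 of the 10 did not overlap, against 34.1%. Inhba differed by 0.93 ± 0.37 (adjusted p = 0.0869) over all 5 controls, by 0.52 ± 0.13 (adjusted p = 0.0112) against replicates 1 to 3 and by 1.90 ± 0.24 (adjusted p = 0.00179) against replicates 4 and 5. It passed without d10 replicate 4 (0.72, adjusted p = 0.0495), and Tgfb1 without d10 replicate 3 (−0.33, adjusted p = 0.0181). With treated d14 replicate 2 alone, none of the 10 was called (Ltbp2 1.504, adjusted p = 0.112). Against treated d10 tumors, 4 of the 10 passed, Tgfbr1, Tgfb1i1, Ltbp2 and Inhba, all higher at d14, against 46.6% of 17791 genes, and Ltbp2 and Inhba were called, against 11.5%. Higher genes made up 23.3% of all genes at the adjusted p and 9% of all genes as called, and 6 of the 10 did not overlap, against 59.8%. Without treated d14 replicate 3, Ltbp1 (−0.43, adjusted p = 0.00939) and Tgfbi (0.46, adjusted p = 0.0214) passed as well. Tgfb1i1 there rose by 0.87 ± 0.13 (edgeR adjusted p = 0.00134), whereas between the same days in untreated tumors it fell. With treated d14 replicate 2 alone set against treated d10 tumors, the log2 difference was 1.58 for Ltbp2 and 1.19 for Inhba.

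Beyond the 10 genes, 105 genes of the pathway were read from 6 lists. From d6 to d10, 27 of 98 tested rose and 5 fell, where 17.5% of all genes passed (1767 of 16866 higher and 1186 lower). From d6 to d14, 38 rose and 14 fell, together a share close to the 51.5% of all genes that passed (4375 of 17172 higher and 4460 lower). In both, Inhbb rose as a group, as Inhba did, by 1.40 ± 0.24 (edgeR adjusted p = 0.00443) and 1.36 ± 0.17 (adjusted p = 0.000318). Within untreated d10 tumors the 2 genes did not run together. Per kb, Inhbb was 2.99 and 2.26 in replicates 4 and 5, where Inhba was lowest, against 1.99, 1.73 and 1.45 in replicates 1 to 3. Among 18 genes of latency and activation, the matrix protease gene Mmp2 rose from d6 to d10 by 2.08 ± 0.34 (adjusted p = 0.0033) and the integrin gene Itgb6, whose product activates latent TGF-beta in epithelia, fell by −2.12 ± 0.22 (adjusted p = 0.000438). Among 12 antagonists, the BMP inhibitor Grem1 rose from d6 to d14 by 1.97 ± 0.20 (adjusted p = 0.000121). Of 30 induced targets, 8 rose and 7 fell from d6 to d14, with Il11 at 2.07 ± 0.26 and the contractile and matrix genes Acta2 at −1.91 ± 0.12 and Postn at −2.16 ± 0.11 (adjusted p = 0.000273, 2.62e-05 and 1.09e-05). The median of these 30 was 0.05, against 0.01 over all genes tested, of which 51.5% passed. The targets thus divided much as all genes did. Among 18 SMADs and regulators, 10 rose and 2 fell from d6 to d14, and 1, the inhibitory Smad7, was called at 1.04 ± 0.11 (adjusted p = 0.000156).

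From d10 to d14 in untreated tumors, 9 of 99 list genes rose and 15 fell, where 19.7% of all genes passed (1730 of 17659 higher and 1743 lower). Of the 15, 7 were induced targets, among them Tagln at −1.10 ± 0.25 (edgeR adjusted p = 0.0172). At d10, 0 of 99 list genes passed between treated and untreated tumors. At d14, 43 of 99 were higher with treatment and 8 lower, where 32.4% of all genes passed (3188 of 18062 higher and 2665 lower). Of the 99, 17 were called, all higher, where 11.5% of all genes were called and 9.07% were called higher. With treated d14 replicate 2 alone, a fit that called 2 of 19298 genes, 0 of them were called. They included Gdf10, Gdf15, the endothelial receptors Eng and Acvrl1, the decoy receptor Bambi, Itgb3, Mmp2, Mmp9, Emilin1, the antagonists Chrdl1, Dcn and Fmod, and the targets Col1a1, Col1a2, Snai1 and Comp. Of these, Gdf10, Chrdl1, Fmod and Comp were below 1 normalized CPM in every d14 tumor. Dcn, at 1.30 ± 0.37 (adjusted p = 0.0332), is also one of the fibroblast markers, and Col1a1, which makes up fibrillar collagen, was at 1.14 ± 0.26 (adjusted p = 0.0156). By list, 13 of 18 latency and activation genes and 15 of 30 targets rose, against 1 each that fell, while among SMADs and regulators 2 rose and 3 fell. Ccn2, a SMAD target, was at −0.30 ± 0.19 (adjusted p = 0.247), and it was chosen here after its value was seen. Within treated tumors from d10 to d14, 44 of 99 list genes rose and 10 fell, where 46.6% of all genes passed (4151 of 17791 higher and 4139 lower). Among them were Ccn2 at −1.37 ± 0.11 and Fmod at 2.47 ± 0.42 (edgeR adjusted p = 0.00028 and 0.0019).

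Over the 17 libraries, the level of Tgfbi ran closest to those of Il11ra1, Psap and Psen2 (Pearson r = 0.98, 0.97 and 0.97 of log2 normalized CPM, and 0.95, 0.94 and 0.92 after group means were taken out), among 10651 protein coding genes. Il11ra1 has near-identical copies in the mouse genome, so its own counts are uncertain. Tgfbr1 ran closest to Fbxl20, Lrrk2 and Cpeb2 (r = 0.98, 0.97 and 0.97, and 0.81, 0.83 and 0.79 after group means were taken out). Ltbp2 ran closest to Rnf157, Pag1 and Fmnl3 (r = 0.97 for each, but 0.71, 0.47 and 0.60 after group means were taken out). For Inhba these were Zfp608, Olr1 and Map4k4 (r = 0.94, 0.93 and 0.93, and 0.87, 0.85 and 0.78 after group means were taken out). Among the 10 genes themselves, Ltbp2, Tgfbr1 and Inhba formed the closest pairs, with r between 0.81 and 0.88 over all libraries. Once group means were taken out these values were −0.02 for Ltbp2 with Tgfbr1, −0.17 for Ltbp2 with Inhba and 0.53 for Tgfbr1 with Inhba. Tgfb1 with Tgfbi followed closely at 0.81, and at 0.74 with group means taken out. The highest values with group means taken out were 0.81 for Tgfb3 with Tgfbr2 and 0.80 for Ltbp2 with Tgfb1i1 and with Tgfbi. Over all libraries these 3 pairs had r = 0.47, −0.25 and 0.61. These values are descriptions of 17 libraries that share groups, and they carry no test.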

How the data were processed

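RNA from 17 AB12 tumors, 1 library per mouse, was measured in 5 groups taken from the sample labels. The authors aligned reads to GRCm38 with TopHat2 2.0.14, kept uniquely mapped reads and counted them per Gencode vM21 gene with HTSeq, and the deposited values are these raw counts, without normalization. Whether counting used strand was not stated, so reads shared with antisense genes cannot be assigned. Instruments and read lengths differed within the study, and which library had which was not given in the sources used here.

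The 10 genes and the lists were chosen with earlier results of these data known. In R 4.3.3, edgeR 4.0.16 was run over all genes that passed filterByExpr, with TMM scaling and the quasi-likelihood test, on the groups compared only, with Benjamini-Hochberg adjustment over all genes tested. A standard error was taken as the size of the log2 fold change over the square root of the F statistic. The scripts were tested on simulated data. Named genes were the 10 in every comparison, called genes of 6 pathway lists (the 3 with the largest fold change where a list had more than 5, at a mean of at least 1 normalized CPM), and the 3 genes most correlated with each of the 10 (mean of at least 5 normalized CPM, log2 with a pseudocount of 0.5). From these, the text gives a selection. Alternatives were DESeq2 1.42.0, no TMM scaling, no filter, all 5 groups in 1 fit, adjusted p alone, a replicate block, parts of the untreated d10 group, each library left out in turn and, chosen after seeing the data, treated d14 replicate 2 alone. Total counts ranged from 46371577 to 96759833, and p-values measure the spread between tumors, which can hold differences between sequencing projects as well as between mice. The study's methods removed genes that differed strongly between 1 sequencing project and the others. No gene was removed for that here, and no term for the project entered the fits. Across 22 pairs of replicates the chi-square per gene was between 18.5 and 268, where sampling noise alone gives about 1, so no pair was treated as duplicates. Marker lists of platelets, regulatory T cells, neutrophils, B cells, adipocytes, skeletal muscle and liver were also summed. Over all 17 libraries their sums lay between 5.26 and 16.8, 18.3 and 58.7, 53.8 and 188, 1.48 and 99.1, 1.10 and 33.4, 0.129 and 1.07 and 0 and 4.36 normalized CPM.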

Additional observations from a re-analysis of the deposited data

Results flagged for a closer look

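In untreated d10 tumors, Tgfb1 in replicate 3 was 150 normalized CPM against 209 to 232 in the other 4, a gap of 0.72 of the range of the group, above Dixon's critical value of 0.71 for 5 samples. Chance alone would mark about 1 in 20 groups, and 10 genes were examined. Leaving that library out moved Tgfb1 past the adjusted p from d6 to d10, as given with its levels. For 4 genes the treatment effect at d14 differed from that at d10 by the interaction term. The difference on the log2 scale was 1.23 for Tgfbi, 1.59 for Tgfb1i1, −1.03 for Ltbp1 and 0.96 for Ltbp2. Markers of macrophages and fibroblasts moved with treatment at d14 as well, and their part in these differences was not tested.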

How the results depend on the processing

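The lowest count of any of the 10 genes was 136, in Ltbp2 at d6. With 3 tumors in most groups, several calls were lost or gained without 1 library, as given with each gene. Calls that involve d10 changed with the untreated tumors used. Between untreated d10 and d6, d14 and d10, d14 and d6, treated and untreated d14, treated d14 and untreated d10, and treated d14 and treated d10, 2, 0, 4, 2, 1 and 2 of the 10 genes were called. With the adjusted p alone these counts became 5, 5, 7, 6, 2 and 4. With untreated d10 replicates 4 and 5 only, 2 were called from untreated d10 to d14 and 2 between treated d14 and untreated d10. With all 5 groups in 1 fit, 1 was called between treated and untreated d14 and 1 between treated d14 and d10, and Tgfb1 and Tgfb1i1 passed the adjusted p from d6 to d10 (0.017 and 0.0236). With treated d14 replicate 2 only, in which the lone tumor is assumed to vary like the others, the counts were 0 against untreated d14 and 0 against untreated d10. In that fit the log2 difference between treated d14 and treated d10 was 1.58 for Ltbp2 and 1.19 for Inhba, both above 2-fold. The cause of the moves in these counts was not tested. Leaving out 1 library at a time gave counts between 1 and 3 from d6 to d10, 0 and 1 from d10 to d14, 3 and 4 from d6 to d14, 0 and 0 between treated and untreated d10, 1 and 3 at d14, 1 and 1 for treated d14 against untreated d10, 1 and 2 for treated d14 against d10, and 1 and 4 for the difference between treatment effects.

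No value that had passed the threshold reversed. Among values that had not, the log2 fold change reversed as follows. With untreated d10 replicates 4 and 5 only, it was 0.069 for Tgfb3 from d6 to d10, −0.13 for Tgfb3, −0.14 for Tgfbr2 and 0.91 for Inhba between treated and untreated d10, and −0.049 for Tgfbr1 and −0.38 for Inhba in the difference between treatment effects. With replicates 1 to 3 only, it was −0.094 for Tgfbr2 from d6 to d10, 0.0047 for Tgfbr2 from d10 to d14, 0.13 for Tgfbi and 0.12 for Ltbp2 between treated and untreated d10, and 0.20 for Ltbp1 in treated d14 against untreated d10. Without TMM scaling, it was −0.016 for Tgfb3 between treated and untreated d10, 0.0017 for Tgfb2 at d14, 0.11 for Ltbp1 in treated d14 against untreated d10 and 0.028 for Tgfb1 in treated d14 against d10. In 1 fit of all groups, it was 0.0045 for Ltbp1 in treated d14 against untreated d10, and with treated d14 replicate 2 only, 0.065 for Tgfb2 at d14. Leaving out 1 library, the range was −0.11 to 0.23 for Tgfbi from d6 to d14, −0.029 to 0.055 for Tgfb3, −0.15 to 0.10 for Tgfbi, −0.14 to 0.12 for Ltbp2 and −0.26 to 0.15 for Inhba between treated and untreated d10, −0.19 to 0.23 for Tgfb2 at d14, and −0.20 to 0.081 for Ltbp1 in treated d14 against untreated d10.

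The 30 correlations between deviations of tumors with the same replicate number lay between −0.263 and 0.14, and 2 exceeded 0.1. These values gave no sign of pairing by number, and tumors with different numbers were not compared in this way. Under the replicate block the number of the 10 genes called was the same in all comparisons, but in the difference between treatment effects Tgfbi was lost (1.04, edgeR adjusted p = 0.0503) and Inhba gained (1.002, adjusted p = 0.0223). Untreated d10 replicates 4 and 5 share their number with no other tumor, so the block takes them out of the fold change. Where untreated d10 enters, the block thus resembles the fit of replicates 1 to 3 alone. For Ltbp1 between treated and untreated d10 these gave 0.52 and 0.53. At the adjusted p, the block brought 5 genes past between treated and untreated d10 (Inhba, Ltbp1, Tgfb1i1, Tgfb2 and Tgfbr2, adjusted p from 0.00226 to 0.0355). It lost Tgfb1, Tgfbi and Tgfbr1 from d10 to d14 (0.0502, 0.175 and 0.0707). It gained Ltbp1 from d6 to d10, Inhba at d14, and Inhba, Tgfbi and Tgfbr2 for treated d14 against untreated d10. With the block, reversed values were −0.096 for Tgfbr2 from d6 to d10, −0.0097 for Tgfbi from d6 to d14, −0.0024 for Tgfbr1, 0.19 for Tgfbi and 0.14 for Ltbp2 between treated and untreated d10, 0.023 for Tgfb2 at d14, and 0.18 for Ltbp1 in treated d14 against untreated d10.

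Without TMM scaling the median of all genes moved by 0.147 for treated d14 against untreated d10 and by 0.118 for treated d14 against d10. Called genes then split as 769 higher and 500 lower from d10 to d14 (668 and 609 with TMM), 2053 and 1343 from d6 to d14 (1758 and 1512), and 1304 and 282 for treated d14 against untreated d10 (964 and 450). Between treated and untreated d10, 3 genes were called by edgeR, 0 without TMM scaling and 223 by DESeq2.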
